A study of Mus musculus with 18 samples.

Results

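The collagen chains measured outside the cartilage set were 36 probe sets of an expression array, each reading 1 gene. They were chosen by symbol alone, as Col, digits, a and digits, from 42 such probe sets. The 6 left out were the chains of cartilage collagens Col2a1, Col9a1, Col9a2, Col9a3 and Col11a2, together with Col25a1, a transmembrane collagen of neurons. The 36 stand among 19572 probe sets with 1 gene symbol, of 22206 in the table. RNA of C57BL/6 mice labelled female and 5 to 6 weeks old was measured on 18 Clariom S arrays, 3 for each of 6 groups. In skin these were lncKO mice (arrays 4 to 6), which carry a knockout of the lncRNA MIR205HG, miR-205 KO mice (arrays 7 to 9), which lack a microRNA of the same locus, and wild-type mice (arrays 1 to 3). In pituitary they were lncKO mice (arrays 13 to 15), miR-205 KO mice (arrays 16 to 18) and wild-type mice (arrays 10 to 12). The labels name no driver line, no treatment and no pooling, and they do not say that the arrays of a group came from separate mice. Each limma p-value below therefore rests on the spread of arrays within groups, whatever its source, technical spread included. That spread is pooled over all groups in the fit and moderated across probe sets. The text on RNA extraction speaks of a piece of ear and stands beside the pituitary samples too.

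Collagens are secreted or membrane proteins built from 3 chains wound into a triple helix. Fibril-forming collagens give skin its tensile strength, type IV collagen forms the sheet of basement membranes, and type VI collagen forms beaded filaments around cells. Fibril-associated collagens sit on the surface of fibrils, short-chain collagens form lattices, and multiplexins and transmembrane collagens link cells with basement membranes. In skin most fibrillar collagen comes from dermal fibroblasts, while basal keratinocytes make the transmembrane chain Col17a1.

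Several facts of the series touch what follows. The tissue labels were borne out by marker levels, but the sex label was not. Markers of pituitary hormone cells (7 genes) summed to an intensity of 2810454 to 3565725 on the 9 pituitary arrays, against 119 to 2696 on the 9 skin arrays. Markers of basal keratinocytes (6 genes) summed to 3211 to 4129 in pituitary and to 226992 to 285206 in skin. The Y-linked gene Uty lay at 1869 to 2339 on every pituitary array and at 6 to 13 on every skin array, and Kdm5d lay at 172 to 318 in pituitary and at 6 to 9 in skin. All 9 pituitary arrays thus went against their label of female, so that in each comparison between tissues the tissue and the sex cannot be told apart. Within skin the wild-type arrays stood apart from both knockouts, with 3009 and 3293 of 19572 probe sets past the threshold used here (an adjusted p under 0.05, in limma) and 0 between the knockouts.

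The genotype of arrays 7 to 9 and 16 to 18 is named for miR-205, whose main product is shown first, from RefSeq on GRCm38.p6, with the seed (bases 2 to 8) in capitals. No probe set used here reads this microRNA or the MIR205HG transcript, and the genotypes were taken from the labels. It is followed by promoters of 4 chains that the skin results turn on, each 300 bases long and running from 250 bases before to 50 bases after the annotated start. These are Col8a1 and Col15a1, which were higher in both skin knockouts, and the neighbouring genes Col6a1 and Col6a2, of which Col6a2 was lower there and Col6a1 was not called. Capitals mark matches, on either strand, to GGGCGG (the GC box bound by Sp factors) or TGANTCA (the AP-1 motif).
mmu-miR-205-5p, chr1:193507503-193507524, minus strand: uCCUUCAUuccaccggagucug
Col8a1 promoter, chr16:57754688-57754987, minus strand: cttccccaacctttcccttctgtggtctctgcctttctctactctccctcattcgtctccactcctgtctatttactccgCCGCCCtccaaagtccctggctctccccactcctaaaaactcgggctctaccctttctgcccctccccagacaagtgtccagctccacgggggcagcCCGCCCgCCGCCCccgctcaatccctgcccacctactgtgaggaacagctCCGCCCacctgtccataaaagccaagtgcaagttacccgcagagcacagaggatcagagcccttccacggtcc
Col15a1 promoter, chr4:47207762-47208061, plus strand: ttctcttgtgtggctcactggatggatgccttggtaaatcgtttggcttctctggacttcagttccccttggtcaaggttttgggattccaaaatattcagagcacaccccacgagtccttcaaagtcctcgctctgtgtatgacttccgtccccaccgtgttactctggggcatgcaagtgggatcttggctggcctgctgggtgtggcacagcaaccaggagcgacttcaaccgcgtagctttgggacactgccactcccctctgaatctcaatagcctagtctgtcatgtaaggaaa
Col6a1 promoter, chr10:76725995-76726294, minus strand: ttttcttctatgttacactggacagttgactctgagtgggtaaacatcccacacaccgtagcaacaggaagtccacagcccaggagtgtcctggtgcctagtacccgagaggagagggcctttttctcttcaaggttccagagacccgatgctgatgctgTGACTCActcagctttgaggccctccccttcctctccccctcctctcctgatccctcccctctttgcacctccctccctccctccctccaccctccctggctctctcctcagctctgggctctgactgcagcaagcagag
Col6a2 promoter, chr10:76623355-76623654, minus strand: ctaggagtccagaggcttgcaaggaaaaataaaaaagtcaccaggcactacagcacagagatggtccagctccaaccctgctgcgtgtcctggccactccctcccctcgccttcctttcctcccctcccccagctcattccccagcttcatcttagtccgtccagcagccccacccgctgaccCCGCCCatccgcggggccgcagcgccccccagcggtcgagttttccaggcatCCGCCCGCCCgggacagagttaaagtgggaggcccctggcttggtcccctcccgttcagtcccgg

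The promoter table held 32 promoters for 30 of the 36 chains. Col8a1 held 4 copies of GGGCGG, which began 170, 73, 66 and 23 bases before the start. The first of 2 annotated starts of Col6a2 held 3 copies, 67, 15 and 11 bases before the start, and the last 2 of them overlapped. Col6a1 held no GGGCGG and a single TGANTCA, 90 bases before the start, while Col15a1 held neither, and nor did the promoter of Col20a1, also higher in both knockouts. GGGCGG was present in 19 of the 32 collagen promoters and in 35.7% of all 32851 promoters of the table. TGANTCA was present in 1 of the 32 and in 7.81% of all. The letters TATAAA and CCAAT were also searched and were found in 4 and 10 of the 32, against 13.6% and 37.4% of all. These matches describe the letters only.

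In skin, 7 chains passed in lncKO mice (6 up, 1 down) and 8 in miR-205 KO mice (6 up, 2 down). The chains that rose in both were Col8a1, Col14a1, Col15a1, Col20a1 and Col4a5, that is 1 short-chain network collagen, 2 fibril-associated collagens, 1 multiplexin and 1 basement membrane chain. Col6a2, a chain of the type VI filaments, fell in both. The chains of the main dermal fibrils, Col1a1, Col1a2 and Col3a1, passed the test in neither. In lncKO skin the risers were 16.7% of the 36 chains, against 6.21% of all probe sets tested, and those that fell were 2.78%, against 9.17% of all. In miR-205 KO skin the shares were 16.7% and 5.56%, against 6.79% and 10.0% of all. The median log2 fold change of the 36 chains was 0.44 in lncKO and 0.21 in miR-205 KO skin, beside -0.07 over all probe sets in each. Both comparisons use the same 3 wild-type arrays, so their values are given side by side and the match between them is not a result. A bulk array cannot tell more cells of a type from more RNA per cell.

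**Figure D1:**
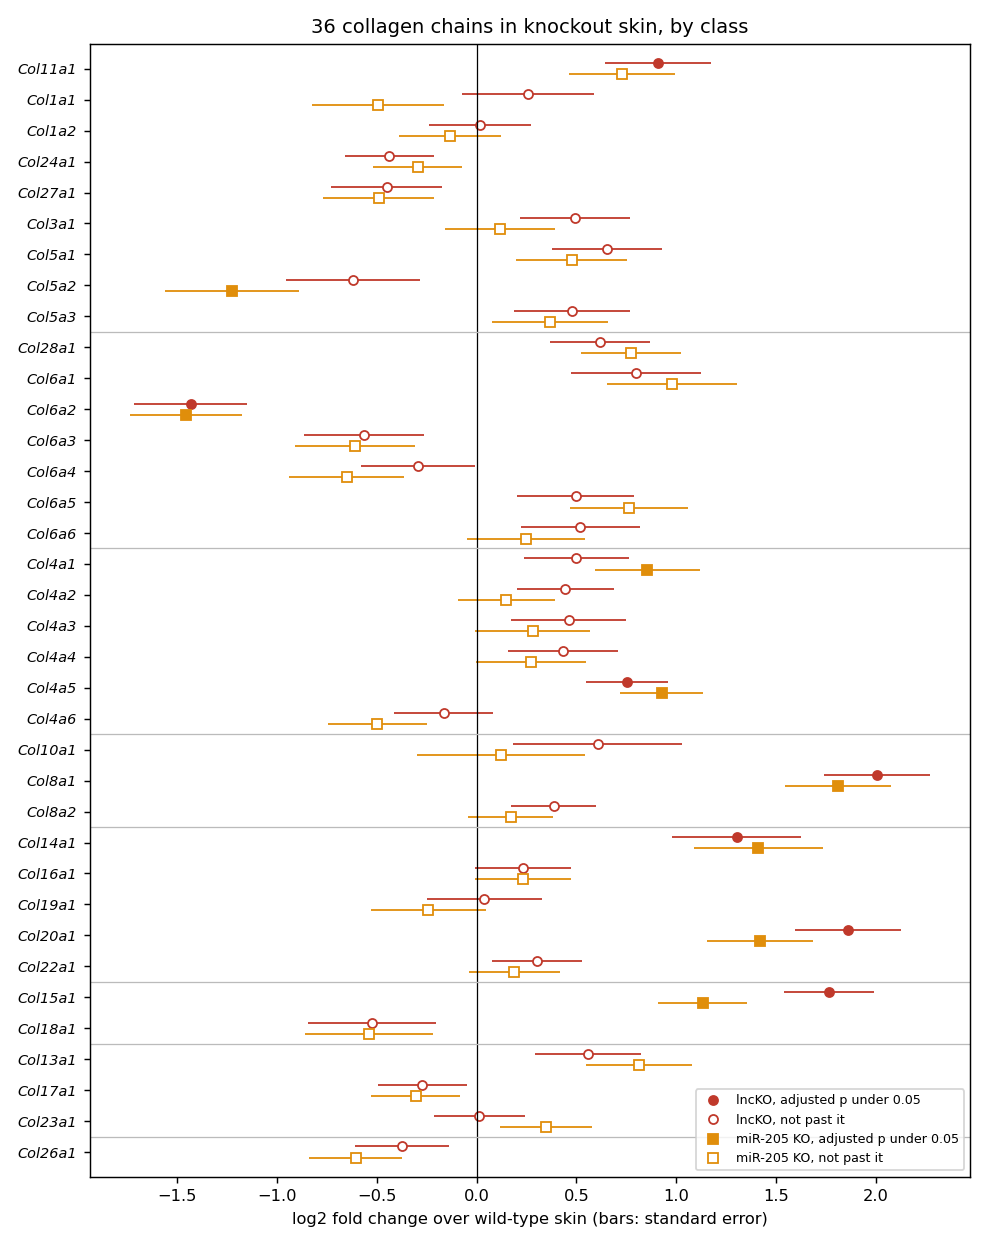
The log2 fold change of each of the 36 collagen chains over wild-type skin (horizontal axis) is drawn with its standard error for lncKO (circles) and miR-205 KO skin (squares), with n = 3 arrays per group. Chains are ordered by class from fibril-forming at the top, then type VI and related, type IV, short-chain, fibril-associated, multiplexin and transmembrane chains, to Col26a1 at the bottom, and filled symbols passed the test. Most filled symbols lie right of 0, at 0.75 to 2.01, and those of Col6a2 and Col5a2 lie left of it.

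Markers of other tissues were followed on the same arrays. Over all probe sets, 6.21% were higher and 9.17% lower in lncKO skin, and 6.79% and 10.0% in miR-205 KO skin. Of 12 cartilage markers, 7 rose in each skin knockout, among them Col9a3 (log2 fold changes of 3.53 in lncKO and 2.91 in miR-205 KO skin) and Acan (2.85 and 3.01). The summed intensity of the list was 48163 to 86669 in lncKO, 60248 to 74221 in miR-205 KO and 21218 to 32619 in wild-type skin. Matn1 of this list was at or below an intensity of 16 on every skin array. Col2a1, the chain that defines cartilage fibrils, lay at 18 to 22 in lncKO, at 19 to 21 in miR-205 KO and at 12 to 21 in wild-type skin. Of 6 adipocyte markers 4 rose in each knockout, with sums of 147066 to 222809 in lncKO, 145533 to 256983 in miR-205 KO and 73969 to 122837 in wild-type skin. Of 5 bone markers 2 rose in each, Bglap and Ibsp, with sums of 11491 to 13973 in lncKO, 6803 to 8576 in miR-205 KO and 683 to 1092 in wild-type skin. Dmp1 was at or below 16 on every skin array, and Phex on every knockout skin array but not on every wild-type one. The mean log2 intensity of the bone list was 6.28 to 6.57 in lncKO, 6.34 to 6.59 in miR-205 KO and 5.17 to 5.42 in wild-type skin. Skeletal muscle markers rose for 2 of 8 genes in lncKO and 3 of 8 in miR-205 KO skin, and their sums overlapped (58022 to 191184 in lncKO, 76985 to 144937 in miR-205 KO and 57129 to 118204 in wild-type skin).

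Of 11 fibroblast markers, 2 rose and 1 fell in lncKO skin, and 3 rose in miR-205 KO skin. Their sum was 1243891 to 1520254 in lncKO, 1346770 to 1455748 in miR-205 KO and 793371 to 897263 in wild-type skin. A sum is weighted to the brightest genes. The list's mean log2 intensity overlapped between lncKO (10.95 to 11.53) and wild-type skin (10.75 to 11.24), and was 11.48 to 11.72 in miR-205 KO skin. Among 7 endothelial markers Cldn5 rose in both knockouts and Tie1 fell in miR-205 KO skin, with sums of 3640 to 3979 in lncKO, 3153 to 4178 in miR-205 KO and 2540 to 3283 in wild-type skin. Among 7 mural cell markers Myh11 rose in both, with sums of 5447 to 7272 in lncKO, 7041 to 8187 in miR-205 KO and 4995 to 7688 in wild-type skin. None of 4 Schwann cell markers passed. Of 6 basal keratinocyte markers Itgb4 fell in both. The called shares of mural (14.3%) and keratinocyte markers (16.7%) were near those of all probe sets, 15.4% in lncKO and 16.8% in miR-205 KO skin. The endothelial share was 14.3% in lncKO and 28.6% in miR-205 KO skin. The 7 pituitary hormone markers summed to 132 to 146 in lncKO, 119 to 148 in miR-205 KO and 149 to 2696 in wild-type skin. Gh, the growth hormone gene, read 2501 on wild-type array 1 and 29 and 76 on wild-type arrays 2 and 3. Gh was lower in lncKO (-4.42) and miR-205 KO skin (-4.05), Prl was lower in miR-205 KO skin (-1.49), and Tshb was higher in both (1.34 in lncKO and 1.33 in miR-205 KO). The part of any of these markers in the collagen results below was not tested.

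Col8a1 encodes the main chain of type VIII collagen, a short-chain lattice collagen found under endothelia and in vessel walls. Its intensity was 1906, 2561 and 2197 on the lncKO arrays, 1994, 2003 and 1789 on the miR-205 KO arrays, and 366, 765 and 589 on the wild-type arrays. All 6 knockout arrays lay above all 3 wild-type arrays, and the knockouts overlapped each other. The log2 fold change was 2.01 ± 0.27 (SE) in lncKO skin (adjusted p = 5.96e-04 in limma), a 4.02-fold difference. In miR-205 KO skin it was 1.81 ± 0.27 (adjusted p = 0.00112), a 3.51-fold difference. The related chain Col8a2 lay at 393, 461 and 437 in lncKO, at 363, 323 and 433 in miR-205 KO and at 347, 283 and 362 in wild-type skin, and did not pass in either (0.39 ± 0.21 in lncKO and 0.17 ± 0.21 in miR-205 KO). Col10a1, a short-chain collagen known from hypertrophic cartilage, lay at 357, 979 and 472 in lncKO, at 532, 462 and 245 in miR-205 KO and at 244, 616 and 311 in wild-type skin, and its groups overlapped.

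Col15a1 encodes a multiplexin of basement membrane zones around vessels and muscle. It lay at 63, 86 and 100 in lncKO skin, at 57, 47 and 54 in miR-205 KO skin and at 25, 25 and 22 in wild-type skin. Every knockout array was above every wild-type array, and each lncKO array was above each miR-205 KO array. The log2 fold change was 1.77 ± 0.22 in lncKO (adjusted p = 4.86e-04 in limma) and 1.13 ± 0.22 in miR-205 KO skin (adjusted p = 0.00571). Col18a1, the other multiplexin and the source of endostatin, passed in neither (-0.53 ± 0.32 in lncKO and -0.54 ± 0.32 in miR-205 KO). Its intensity was 161 to 286 in lncKO, 183 to 237 in miR-205 KO and 179 to 438 in wild-type skin, and the groups overlapped.

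Col20a1 and Col14a1 encode fibril-associated chains, and type XIV collagen binds the surface of type I fibrils. Col20a1 lay at 271, 241 and 201 in lncKO, at 241, 175 and 124 in miR-205 KO and at 60, 57 and 80 in wild-type skin, with no overlap between either knockout and wild type. Its log2 fold change was 1.86 ± 0.27 in lncKO (adjusted p = 9.77e-04 in limma) and 1.42 ± 0.27 in miR-205 KO skin (adjusted p = 0.00439). Col14a1 lay at 135, 169 and 169 in lncKO, at 203, 198 and 120 in miR-205 KO and at 44, 108 and 54 in wild-type skin. Here wild-type array 2 was close to the lowest knockout array, though the groups did not overlap. The log2 fold change was 1.30 ± 0.32 in lncKO (adjusted p = 0.0176) and 1.41 ± 0.32 in miR-205 KO skin (adjusted p = 0.0116). Both calls were lost with a floor of 16 under the intensities (adjusted p = 0.0790 in lncKO and 0.0611 in miR-205 KO). The lncKO call was also lost without wild-type array 1 or 3 or lncKO array 5 or 6, and the miR-205 KO call without miR-205 KO array 7. The remaining chains of the class, Col16a1, Col19a1 and Col22a1, had log2 fold changes of 0.04 to 0.30 in lncKO and of -0.24 to 0.23 in miR-205 KO skin, and none passed.

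**Figure D2:**
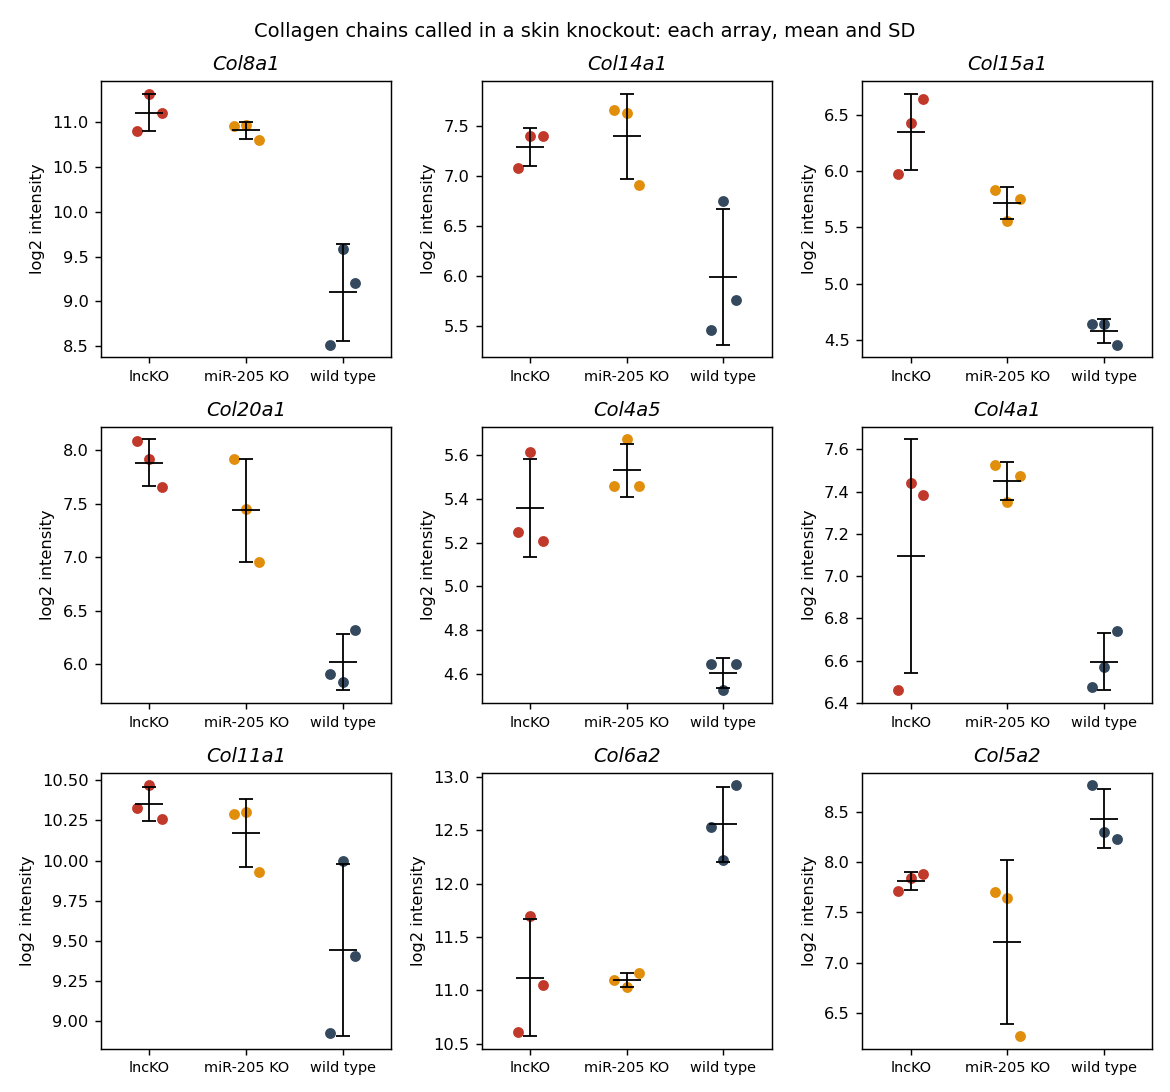
Log2 intensity (vertical axis, scaled per panel) of the 9 chains that passed the test in at least 1 skin knockout, on each lncKO, miR-205 KO and wild-type array, with the mean (wide bar) and SD (n = 3). In the panels of Col8a1, Col14a1, Col15a1, Col20a1 and Col4a5 all knockout points lie above all wild-type points, and in those of Col6a2 and Col5a2 they lie below.

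Of the 6 type IV chains of the basement membrane, 1 rose in lncKO and 2 rose in miR-205 KO skin. Col4a5, whose gene is mutated in X-linked Alport syndrome and whose chain also joins Col4a6 in skin, lay at 38, 49 and 37 in lncKO, at 44, 51 and 44 in miR-205 KO and at 25, 23 and 25 in wild-type skin. The groups did not overlap, and the log2 fold changes were 0.75 ± 0.21 in lncKO (adjusted p = 0.0273 in limma) and 0.93 ± 0.21 in miR-205 KO skin (adjusted p = 0.0100). The lncKO call did not survive a fit of those 6 arrays alone (adjusted p = 0.0563) or the loss of wild-type array 2 or 3 or lncKO array 4 or 5 (0.0508 to 0.0808). Col4a1, a chain of the network present in nearly all basement membranes, lay at 88, 174 and 167 in lncKO, at 184, 163 and 178 in miR-205 KO and at 89, 95 and 107 in wild-type skin. Array 4 lay just below the wild-type arrays, whereas the miR-205 KO arrays were all above them. Col4a1 rose in miR-205 KO skin (0.85 ± 0.26, adjusted p = 0.0422), and that call was lost without any one of its 6 arrays (0.0623 to 0.122), while lncKO had 0.50 ± 0.26 (adjusted p = 0.216), or 0.82 without array 4 (0.0421). The difference between the knockouts was -0.35 ± 0.26 (lncKO over miR-205 KO, adjusted p = 1 in limma).

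Its usual partner Col4a2 did not pass in either knockout, with intensities of 276, 353 and 258 in lncKO, 256, 295 and 180 in miR-205 KO and 250, 204 and 196 in wild-type skin. Its log2 fold changes were 0.44 ± 0.24 in lncKO and 0.15 ± 0.24 in miR-205 KO skin. Col4a3 and Col4a4, which join Col4a5 in the kidney, had 0.46 ± 0.29 and 0.43 ± 0.28 in lncKO and 0.28 ± 0.29 and 0.27 ± 0.28 in miR-205 KO skin. Col4a6 had -0.17 ± 0.25 in lncKO and -0.50 ± 0.25 in miR-205 KO skin. None of these 4 passed.

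Type VI collagen is assembled from 1 chain each of Col6a1, Col6a2 and Col6a3 or a relative of the last. Col6a2 lay at 1559, 3337 and 2125 in lncKO, at 2197, 2091 and 2290 in miR-205 KO and at 5899, 4764 and 7739 in wild-type skin. Every knockout array was below every wild-type array. The log2 fold change was -1.43 ± 0.28 in lncKO (adjusted p = 0.00585 in limma) and -1.46 ± 0.28 in miR-205 KO skin (adjusted p = 0.00518). Col6a1, the adjacent gene on chromosome 10, lay at 3852, 5728 and 4332 in lncKO, at 5919, 4951 and 4736 in miR-205 KO and at 1664, 2345 and 4656 in wild-type skin. Wild-type array 3 fell among the lncKO arrays and just under the miR-205 KO arrays. Col6a1 did not pass in lncKO (0.80 ± 0.33, adjusted p = 0.115) or miR-205 KO skin (0.98 ± 0.33, adjusted p = 0.0561). In miR-205 KO skin it passed under 4 alternatives, namely quantile normalization (0.0423), median centring (0.0424), the variance trend (0.0381) and all 18 arrays (0.0192). Without wild-type array 3 it passed in both lncKO (1.21, adjusted p = 0.0140) and miR-205 KO skin (1.39, adjusted p = 0.00677). Col6a3 lay at 3738, 4719 and 4325 in lncKO, at 4538, 4272 and 3579 in miR-205 KO and at 10176, 6189 and 3910 in wild-type skin, with overlap and no call (-0.56 ± 0.30 in lncKO and -0.61 ± 0.30 in miR-205 KO). Without wild-type array 3 it was lower in lncKO (-0.90, adjusted p = 0.0487) and in miR-205 KO skin (-0.95, adjusted p = 0.0390). The other chains with the same kind of domains, Col6a4, Col6a5, Col6a6 and Col28a1, passed in neither knockout, at log2 fold changes of -0.30 to 0.62 in lncKO and -0.65 to 0.77 in miR-205 KO skin.

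The unequal change of partner chains was looked at within arrays, as the difference of the log2 intensities of 7 pairs chosen after their values were seen. The difference itself depends on the probes, so only its shift between genotypes is read. Col6a2 minus Col6a1 was -1.30 to -0.78 in lncKO, -1.43 to -1.05 in miR-205 KO and 0.73 to 1.83 in wild-type skin. It was lower by 2.23 and 2.43 on average in lncKO and miR-205 KO skin, with no overlap. Col8a2 minus Col8a1 was -2.47 to -2.28 in lncKO, -2.63 to -2.05 in miR-205 KO and -1.44 to -0.08 in wild-type skin. Col5a2 minus Col5a1 was 1.10 to 1.74 in lncKO, 0.38 to 1.44 in miR-205 KO and 2.39 to 2.89 in wild-type skin. The means of these 3 pairs were lower in both knockouts. Col4a6 minus Col4a5 was -0.66 to 0.40 in lncKO, -0.97 to -0.21 in miR-205 KO and 0.87 to 1.03 in wild-type skin. Col1a2 minus Col1a1 was 0.79 to 1.14 in lncKO, 1.36 to 1.82 in miR-205 KO and 0.97 to 1.60 in wild-type skin. The type VI, VIII and V pairs and the Col4a6 pair thus did not overlap wild type in either knockout, and the type I pair overlapped in both. Each pair without overlap in both holds a chain called above in a skin knockout (Col6a2, Col8a1, Col5a2 or Col4a5). Its separation is therefore not a further result. How often pairs of other probe sets separate was not worked out. Among single probe sets, which is a different measure, 30.9% in lncKO and 32.1% in miR-205 KO skin had an unadjusted p under 0.05 in limma. Of the remaining type IV pairs, Col4a4 minus Col4a3 overlapped wild type in both knockouts, with shifts of -0.03 in lncKO and -0.01 in miR-205 KO skin. Col4a2 minus Col4a1 overlapped in lncKO skin (a shift of -0.06) and did not in miR-205 KO skin (-0.71). In pituitary the Col5a2 minus Col5a1 shift was in the opposite direction to skin, at 0.88 in lncKO and 0.81 in miR-205 KO, without overlap. Both chains were near the floor there, so this shift is one among very low values. Col5a1 lay at 6 to 8 in lncKO, 6 to 7 in miR-205 KO and 7 to 10 in wild-type pituitary. Col5a2 lay at 14 to 24 in lncKO, 15 to 21 in miR-205 KO and 11 to 17 in wild-type pituitary. Other pituitary shifts without overlap were those of Col4a4 minus Col4a3 in lncKO (0.70) and miR-205 KO (0.48) and Col1a2 minus Col1a1 in lncKO (-0.93). In miR-205 KO pituitary Col4a2 minus Col4a1 (-0.61) and Col8a2 minus Col8a1 (0.52) did not overlap wild type either. In the latter pair Col8a1 was near the floor, at 12 to 15 in miR-205 KO and 19 to 23 in wild-type pituitary. With 3 arrays against 3, a two-sided exact permutation test cannot go below p = 0.1, which each separation named here reached, and the value adjusted over 28 comparisons was 0.175.

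**Figure D3:**
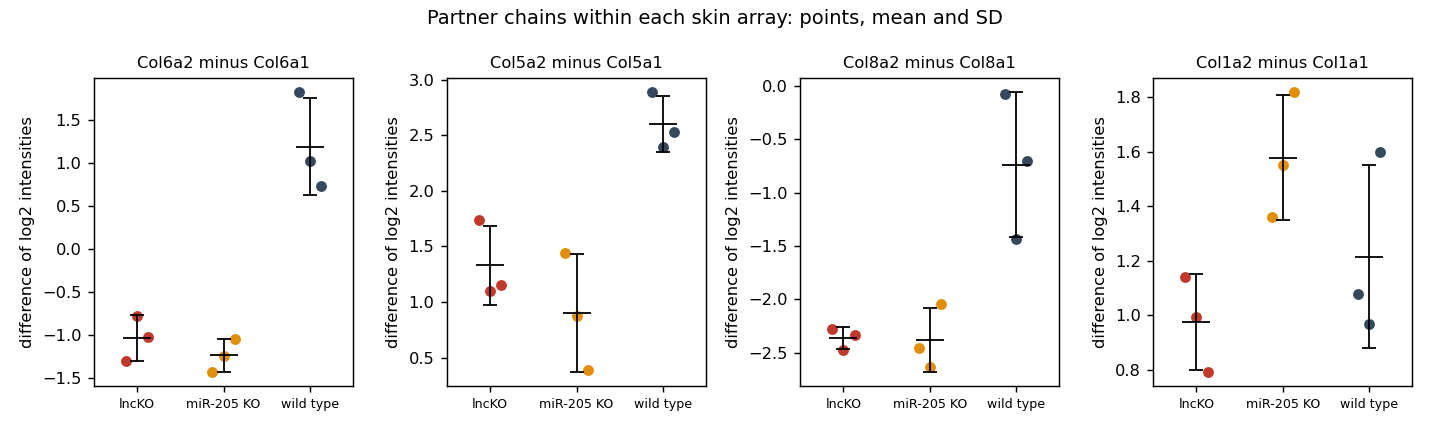
Difference of log2 intensities between partner chains on each skin array (points), with the mean and SD (n = 3), for lncKO, miR-205 KO and wild-type skin. In the Col6a2 minus Col6a1 panel all knockout points lie below all wild-type points, and the Col1a2 minus Col1a1 panel shows overlapping groups.

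Fibril-forming chains were mostly not called. Col1a1 and Col1a2, the 2 kinds of chain in type I collagen, are the bulk of dermal fibrils. Col1a1 lay at 9581, 11557 and 9897 in lncKO, at 7419, 8135 and 3802 in miR-205 KO and at 10014, 11768 and 5461 in wild-type skin. Col1a2 lay at 21139, 23033 and 17136 in lncKO, at 19054, 23878 and 13408 in miR-205 KO and at 21161, 23016 and 16539 in wild-type skin. The groups overlapped for both chains, and neither passed. Col1a1 had a log2 fold change of 0.26 ± 0.33 in lncKO and -0.50 ± 0.33 in miR-205 KO skin, and Col1a2 had one of 0.02 ± 0.25 in lncKO and -0.13 ± 0.25 in miR-205 KO skin. Col3a1, the chain of the thinner fibrils that accompany type I, lay at 63152, 86503 and 55923 in lncKO, at 63295, 65077 and 33945 in miR-205 KO and at 48770, 49076 and 45842 in wild-type skin. The lncKO arrays were all above wild type, but the difference did not pass (0.49 ± 0.27, adjusted p = 0.242), and miR-205 KO arrays lay on both sides (0.12 ± 0.27).

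Type V collagen, which sets the width of type I fibrils, is built mainly from Col5a1 and Col5a2. Col5a2 lay at 210, 229 and 236 in lncKO, at 209, 200 and 77 in miR-205 KO and at 436, 315 and 300 in wild-type skin. All knockout arrays lay below wild type, and array 9 lay far below the others. Col5a2 fell in miR-205 KO skin (-1.23 ± 0.34, adjusted p = 0.0256 in limma) and did not pass in lncKO skin (-0.62 ± 0.34, adjusted p = 0.229). The call was lost without array 9 (adjusted p = 0.0694), without wild-type array 1 (0.0761), and with quantile normalization, the floor or the 6 arrays alone (0.0523 to 0.102). The difference between the knockouts was 0.61 ± 0.34 (lncKO over miR-205 KO) and did not pass. Col5a1 lay at 63, 107 and 106 in lncKO, at 77, 109 and 59 in miR-205 KO and at 59, 60 and 52 in wild-type skin, and did not pass. Col5a3, a rarer chain of the type, had 0.48 ± 0.29 in lncKO and 0.37 ± 0.29 in miR-205 KO skin and did not pass either.

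Col11a1, a fibril chain best known from cartilage that also joins type V chains in other tissues, lay at 1287, 1418 and 1222 in lncKO, at 1253, 1258 and 975 in miR-205 KO and at 486, 1027 and 677 in wild-type skin. It rose in lncKO skin (0.91 ± 0.27, adjusted p = 0.0368 in limma), without overlap. In miR-205 KO skin, where array 9 fell under wild-type array 2, it had 0.73 ± 0.27 (adjusted p = 0.0790), and it passed with quantile normalization (0.0365), median centring (0.0444), all 18 arrays in the fit (0.0345) or without wild-type array 2 (0.0240). The lncKO call was lost with the floor (adjusted p = 0.0857), with its 6 arrays alone (0.0705) and in 5 of 6 fits without an array, the exception being wild-type array 2. Col24a1 and Col27a1, fibril chains of bone and cartilage in other settings, had -0.44 ± 0.22 and -0.45 ± 0.28 in lncKO and -0.30 ± 0.22 and -0.49 ± 0.28 in miR-205 KO skin. Neither passed. Of the cartilage markers, 7 of 12 rose on the same arrays, and their part in the value of Col11a1 was not tested.

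The transmembrane chains did not pass in skin. Col17a1, the hemidesmosome chain that anchors basal keratinocytes, lay at 15384, 14746 and 16323 in lncKO, at 14393, 15787 and 15232 in miR-205 KO and at 14089, 21734 and 21332 in wild-type skin. Wild-type array 1 was below all knockout arrays, and the others were above them (-0.27 ± 0.22 in lncKO and -0.31 ± 0.22 in miR-205 KO). Col13a1, a chain of the neuromuscular junction, had 0.56 ± 0.26 in lncKO (adjusted p = 0.173) and 0.81 ± 0.26 in miR-205 KO skin (adjusted p = 0.0518). The miR-205 KO value passed with quantile normalization (0.0440), median centring (0.0415), all 18 arrays (0.0441), or without wild-type array 1 (0.0295) or miR-205 KO array 9 (0.0450). Col23a1 had 0.01 ± 0.23 in lncKO and 0.35 ± 0.23 in miR-205 KO skin. Col26a1 was at or below 16 on all skin arrays. A further 2 listed chains, Col7a1 of the anchoring fibrils and the fibril-associated chain Col12a1, had no probe set with that symbol here and were not analysed.

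Between the skin knockouts 0 of 36 chains passed in limma, with 0% of all probe sets past the test, and 2 chains (5.56%) had an unadjusted p under 0.05, against 637 probe sets in all (3.26%). Those were Col15a1 (0.64 ± 0.22, lncKO over miR-205 KO) and Col1a1 (0.75 ± 0.33). The 36 differences ran from -0.35 to 0.75 on the log2 scale. A p that misses the threshold does not show that the knockouts had equal levels.

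Genes that fold, process, organise, degrade or sense collagen were followed by lists. Of 17 genes of fibril organisation, 7 passed in lncKO skin (6 up, 1 down) and 6 in miR-205 KO skin (5 up, 1 down). These were 41.2% of the list in lncKO and 35.3% in miR-205 KO skin, against 15.4% and 16.8% of all probe sets past the test in either direction. Dpt, which encodes the fibril-binding protein dermatopontin, rose by 1.99 ± 0.21 in lncKO and 2.15 ± 0.21 in miR-205 KO skin on the log2 scale (adjusted p = 1.79e-04 and 1.14e-04 in limma). Ogn, a small leucine-rich proteoglycan gene, rose by 1.20 ± 0.29 in lncKO and 1.58 ± 0.29 in miR-205 KO skin. Abi3bp, a matrix protein gene, rose by 1.05 ± 0.26 in lncKO and 1.36 ± 0.26 in miR-205 KO skin. Sparc rose by 0.87 ± 0.21 in lncKO skin (adjusted p = 0.0162 in limma). Thbs2, the matricellular gene whose loss in mice gives misshapen fibrils, fell in both, at -1.41 ± 0.27 in lncKO and -1.36 ± 0.27 in miR-205 KO skin. The list's median was 0.47 in lncKO and 0.61 in miR-205 KO skin, beside -0.07 over all probe sets, and some members (Dcn, Lum, Dpt, Fbln1) are also in the fibroblast list.

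Of 17 genes of chain folding and modification, 2 passed in lncKO skin (both down) and 2 in miR-205 KO skin (1 up, 1 down). That is 11.8% in each, under the share of all probe sets, and the counts for degradation (7.69%) and receptors (12.5%) below were under it too. P4ha3, a prolyl hydroxylase subunit, fell in both, at -1.43 ± 0.35 in lncKO (adjusted p = 0.0158 in limma) and -1.45 ± 0.35 in miR-205 KO skin (adjusted p = 0.0142). P3h1, a prolyl 3-hydroxylase, fell by 0.85 in lncKO skin and P4ha1 rose by 0.68 in miR-205 KO skin. None of 11 genes of propeptide processing and crosslinking and none of 13 genes of TGF-beta signalling and its targets passed in either. Among 13 genes of degradation and uptake, the fibroblast protease gene Fap rose in lncKO skin (1.67 ± 0.36) and the dipeptidase gene Pepd fell in miR-205 KO skin (-0.83 ± 0.20). Among 8 receptor genes, Ddr1, a collagen-binding receptor kinase of epithelia, fell in both (-1.01 ± 0.28 in lncKO and -0.95 ± 0.28 in miR-205 KO).

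In pituitary none of the 36 chains passed in either knockout. In lncKO pituitary 0.700% of all probe sets were past the test in limma, in miR-205 KO pituitary 0.107%, and between the knockouts 0.291%. An unadjusted p under 0.05 was found for 4 of the 36 chains in lncKO (11.1%, against 12.5% of all probe sets), 5 in miR-205 KO (13.9%, against 7.47%) and 4 between the knockouts (11.1%, against 11.2%). Their log2 fold changes ran from -0.75 to 0.66 in lncKO and from -0.88 to 0.45 in miR-205 KO pituitary. Of the 36 chains, 25 were above 16 on every pituitary array and 32 on every skin array. Col1a1 lay at 154, 203 and 213 in lncKO, at 67, 72 and 56 in miR-205 KO and at 101, 247 and 67 in wild-type pituitary. The knockouts did not overlap each other, and wild type overlapped both. The difference of lncKO over miR-205 KO was 1.54 ± 0.37 (adjusted p = 0.120 in limma), and it passed with only those 6 arrays in the fit (0.0237). Col1a2 on the same arrays lay at 678, 766 and 683 in lncKO, at 660, 637 and 588 in miR-205 KO and at 455, 1444 and 944 in wild-type pituitary, a difference of 0.17 ± 0.32 between the knockouts.

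The skin-responsive chains had small differences in pituitary. Col8a1 lay at 21, 18 and 19 in lncKO, at 12, 14 and 15 in miR-205 KO and at 20, 23 and 19 in wild-type pituitary, where miR-205 KO arrays were all lowest but did not pass (-0.60 ± 0.17, adjusted p = 0.420 in limma). Col15a1 lay at 16, 21 and 21 in lncKO, at 15, 16 and 20 in miR-205 KO and at 27, 18 and 25 in wild-type pituitary, close to the low end of the scale. Col20a1 lay at 126, 78 and 102 in lncKO, at 97, 74 and 71 in miR-205 KO and at 69, 84 and 65 in wild-type pituitary, with overlap. Col6a2 lay at 269, 183 and 144 in lncKO, at 171, 142 and 128 in miR-205 KO and at 144, 164 and 184 in wild-type pituitary, again with overlap. Neither passed in either knockout. Among the lists of collagen handling, Timp3, an inhibitor of matrix proteases, rose in lncKO pituitary (1.21 ± 0.23, adjusted p = 0.0335), and Colgalt2, a collagen galactosyltransferase, rose in miR-205 KO pituitary (1.60 ± 0.26, adjusted p = 0.0476). Colgalt2 was also lower in lncKO than in miR-205 KO pituitary (-2.10 ± 0.26, adjusted p = 0.011 in limma). Its lncKO effect in pituitary minus that in skin was -1.49 ± 0.43 (adjusted p = 0.0354 in limma). Of the marker lists, the cartilage gene Hapln1 fell in lncKO pituitary (-2.11 ± 0.38).

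Wild-type pituitary and skin differed in most chains, with 3 higher and 22 lower in pituitary. These were 8.33% and 61.1% of the 36, against 25.7% and 26.4% of all probe sets in limma. Of 9 fibril-forming chains 8 were lower, with a class median of -4.14 on the log2 scale. All 3 short-chain collagens and 5 of 7 type VI and related chains were lower too. Within these counts, Col8a2 (-0.50 ± 0.20) was lost in 3 of 6 alternatives and 4 of 6 fits without an array (adjusted p up to 0.192), and Col28a1 (-0.59 ± 0.22) in 3 of 6 and 2 of 6 (up to 0.137). The fibril-forming chain Col5a3, at 10 to 12 in wild-type pituitary, was lost with the floor of 16 (-0.42, adjusted p = 0.148). The multiplexin Col18a1, also among the 22, kept its call in 5 of 6 alternatives and 4 of 6 fits without an array. Of 6 type IV chains 1 was higher and 2 were lower, with a median of -0.36. The lower chains were Col4a1 and Col4a6, which kept their calls in 4 of 6 and 5 of 6 fits without an array. The deepest differences were of Col17a1 (-8.63 ± 0.24), at 39, 37 and 72 in wild-type pituitary and 14089, 21734 and 21332 in wild-type skin. Next came Col3a1 (-7.72 ± 0.29), at 181, 323 and 200 in pituitary and 48770, 49076 and 45842 in skin. Col6a3 (-7.38 ± 0.25) lay at 40, 37 and 36 in pituitary and 10176, 6189 and 3910 in skin. Dermal matrix chains and the keratinocyte chain thus stood at the same end, with no overlap between tissues. Col1a1 (-6.18 ± 0.38) lay at 101, 247 and 67 in pituitary and 10014, 11768 and 5461 in skin. Col6a2 (-5.20 ± 0.27) lay at 144, 164 and 184 in pituitary and 5899, 4764 and 7739 in skin, and neither chain overlapped.

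Col4a3, a chain of the specialised type IV network of kidney and lung, ran the other way. It lay at 208, 216 and 193 in wild-type pituitary and at 55, 25 and 38 in wild-type skin (2.46 ± 0.26, adjusted p = 8.31e-08 in limma). Its neighbour and partner Col4a4 lay at 31, 34 and 30 in pituitary and at 27, 20 and 22 in skin and did not pass (0.47 ± 0.23). Col13a1 (0.83 ± 0.29) and Col6a5 (0.75 ± 0.25) were also higher in pituitary. Col13a1 lay at 62, 133 and 74 in pituitary and at 63, 35 and 49 in skin, where the groups overlapped, and its call was lost without wild-type skin array 2 (adjusted p = 0.108) or pituitary array 11 (0.148). Col6a5 lay at 16, 18 and 16 in pituitary and 12, 8 and 10 in skin, and with the floor of 16 its difference shrank to 0.06. Col15a1 (-0.06 ± 0.21) and Col20a1 (0.15 ± 0.25), which rose in knockout skin, did not pass between the wild-type tissues. Tissue and sex cannot be told apart in these values.

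**Figure D4:**
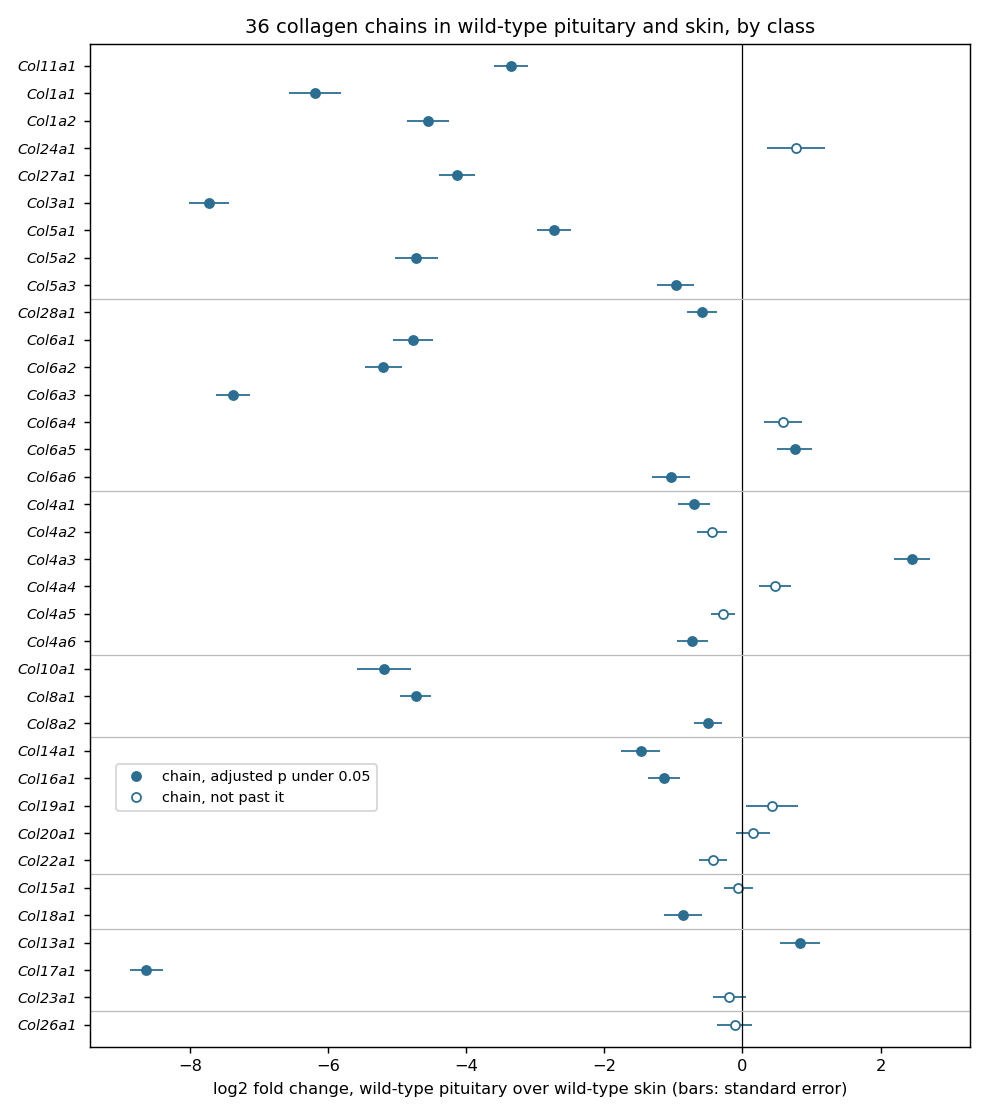
Log2 fold change of wild-type pituitary over wild-type skin (horizontal axis), drawn with its standard error for the 36 chains, ordered by class with fibril-forming chains at the top (n = 3 arrays per tissue). Filled points passed the test. Values run from -8.63 for Col17a1 to 2.46 for Col4a3, and 22 filled points lie left of 0.

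The knockout effects differed between tissues for 5 chains in lncKO and 7 in miR-205 KO mice, in a test of the interaction over all 18 arrays. An interaction is the log2 fold change in pituitary minus that in skin. In lncKO it was higher for 1 chain and lower for 4 (2.78% and 11.1% of the 36, against 5.88% and 3.37% of all probe sets). In miR-205 KO it was higher for 2 and lower for 5 (5.56% and 13.9%, against 6.26% and 3.69%). For Col8a1 it was -2.10 ± 0.32 in lncKO (adjusted p = 4.37e-04 in limma) and -2.41 ± 0.32 in miR-205 KO mice (adjusted p = 1.30e-04). For Col15a1 it was -2.03 ± 0.30 in lncKO (adjusted p = 4.10e-04) and -1.58 ± 0.30 in miR-205 KO mice (adjusted p = 0.00310). Both chains had risen in skin, and neither was called in pituitary. There Col8a1 had -0.09 in lncKO and -0.60 in miR-205 KO, at intensities of 12 to 23. Col15a1 had -0.26 in lncKO and -0.45 in miR-205 KO pituitary, at intensities of 15 to 27. For Col6a2 it was 1.67 ± 0.38 in lncKO (adjusted p = 0.00918) and 1.29 ± 0.38 in miR-205 KO mice (adjusted p = 0.0344). This chain had fallen in skin, and in pituitary it had 0.24 ± 0.23 in lncKO and -0.16 ± 0.23 in miR-205 KO, neither called. Each interaction also carries the contrast between the wild-type arrays of both tissues.

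**Figure D5:**
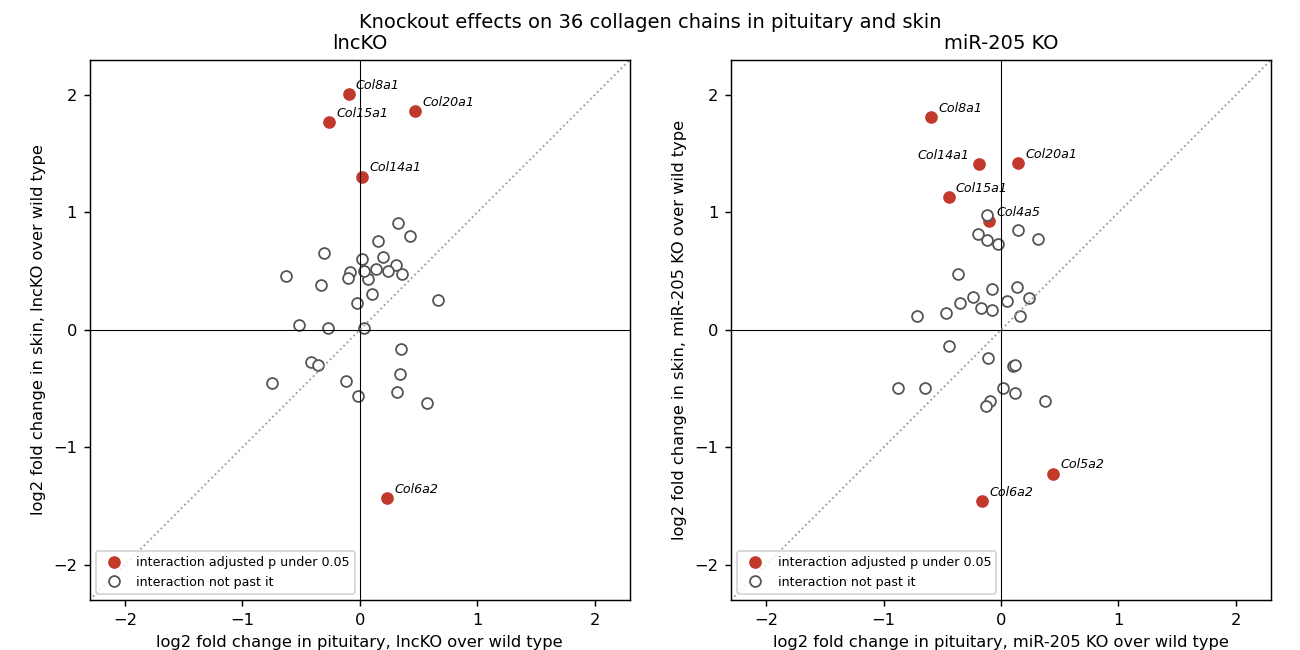
Each point is 1 of 36 collagen chains, placed by its log2 fold change over wild type in pituitary (horizontal axis) and in skin (vertical axis), for lncKO (left) and miR-205 KO mice (right). The dotted line marks equal effects, and filled points, named, passed the interaction test. Filled points lie between -0.60 and 0.47 in pituitary and reach 2.01 and -1.46 in skin.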

How the data were processed

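The authors deposited 1 linear intensity per probe set and array, in whole numbers, from mouse Clariom S arrays. Total RNA was turned into labelled single-stranded cDNA, per the labels' protocols. How the arrays were background-corrected, summarised and normalized is not given in the sources used here. Values ran from 4 to 1243875, with array medians of 82 to 96, and 22.8% to 25.3% of values of an array were at or below 16. No more than 5.49% of values were identical between 2 arrays. Precision is limited by the 3 arrays per group.

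Log2 intensities, without pseudocount or renormalization, were fitted with limma 3.58.1 in R 4.3.3 (lmFit and eBayes, two-sided, Benjamini-Hochberg over 19572 probe sets with 1 symbol, threshold 0.05). The 9 arrays of a tissue shared a fit (6 residual degrees of freedom), and tissue and interaction contrasts used all 18 (12 degrees of freedom). Fits were tested on simulated data. The ± beside a log2 fold change is limma's standard error. Partner chains were compared by an exact permutation test. Symbols are those of the platform annotation, and promoter and microRNA sequences are RefSeq's on GRCm38.p6.

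Alternatives were quantile normalization, median centring, a floor at 16, a variance trend with robust estimation, adjustment over all 22206 probe sets, other sets of arrays in the fit and leaving out each array. The members, the classes and the lists were chosen with earlier results of these data known. Values per array are given for members past the threshold in a knockout (at most 12 per tissue), for a planned set, for the 5 highest and 5 lowest in the tissue contrast, and for at most 6 members by smallest p in the interactions. Up to 4 called genes of a pathway list and 3 of a marker list are named in each comparison.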

Additional observations from a re-analysis of the deposited data

Results flagged for a closer look

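The effect of a knockout differed between tissues for the following chains, each by an interaction in limma (pituitary minus skin, over all 18 arrays). In lncKO mice the differences were -2.10 for Col8a1, -2.03 for Col15a1, -1.39 for Col20a1, -1.28 for Col14a1 and 1.67 for Col6a2. In miR-205 KO mice they were -2.41 for Col8a1, -1.60 for Col14a1, -1.58 for Col15a1, -1.27 for Col20a1, -1.03 for Col4a5, 1.67 for Col5a2 and 1.29 for Col6a2.

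Col14a1 in lncKO mice was the least stable of these, since it passed in 1 of 12 fits without an array. Col6a2 in miR-205 KO mice passed in 4 of 12 and not after quantile normalization (adjusted p = 0.0607), median centring (0.0589) or the floor (0.0579). Col20a1 in miR-205 KO mice passed in 7 of 12, and Col5a2 in 10 of 12 and not with the floor (0.0681). The others kept their call in every alternative and in all 12 fits. Most of these chains were dim in pituitary. Intensities there were 12 to 23 for Col8a1, 15 to 27 for Col15a1 and 18 to 26 for Col14a1. They were 17 to 25 for Col4a5 and 11 to 24 for Col5a2. Col20a1 (65 to 126) and Col6a2 (128 to 269) were brighter. The part of low pituitary levels in the interactions was not tested. Tissue and sex cannot be told apart in these differences, and 7 of 12 cartilage, 4 of 6 adipocyte and 2 of 5 bone markers rose in each skin knockout, whose part in them was not tested.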

How the results depend on the processing

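The count of chains called in lncKO skin was 7 and lay between 4 and 6 when an array was left out, with 4 without lncKO array 5. In miR-205 KO skin it was 8, became 5 with the floor at 16 and 13 in a fit of all 18 arrays, and lay between 6 and 9 when an array was left out. Between the pituitary knockouts it was 0, and 1 (Col1a1) in a fit of the groups compared. Wild-type pituitary over skin gave 25, and 22 to 25 without an array, and the interactions gave 5 in lncKO (4 to 5) and 7 in miR-205 KO (5 to 8). The remaining counts stayed within 1.5 times of these or at 0. Col8a1, Col15a1, Col20a1 and Col6a2 in both skin comparisons, and Col4a5 in miR-205 KO skin, kept their calls under all 7 processing alternatives and all 6 fits without an array, and no named chain reversed a called direction. No paired analysis was possible because no replicate number recurs between groups. Low intensities limit the dim chains, of which 3 were at or below 16 on all pituitary arrays.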
